A study of Homo sapiens with 6 samples.

Results

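The replication-dependent histone genes encode the bulk of the protein on which DNA is wound. They were taken here as every gene symbol of the deposited table that starts with HIST1H, HIST2H, HIST3H or HIST4H, which gave 70 of 22933 gene symbols: 6 for the linker histone H1, 17 for H2A, 20 for H2B, 13 for H3 and 14 for H4. RNA-Seq was performed on total RNA of 6 samples of PC-3, an established prostate cancer cell line, 3 per group. Cells of both groups carried the rtTA2 transactivator of the Tet-On system, were G418-resistant, were sorted for the red fluorescent protein tdTomato and received 300 ng/ml doxycycline (Dox) for 4 hours. The tdTom group carried the vector without tristetraprolin (TTP), and the TTP-tdTom group carried the vector in which Dox induces TTP, an RNA-binding protein that promotes decay of mRNAs with AU-rich elements. The lines are transduced populations of 1 cell line, and the labels do not say whether the 3 samples of a group came from separate cultures.

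Histone mRNAs differ from other mRNAs in how they are made and removed. Cells need new histones while they copy their DNA, so these genes are transcribed together as S phase starts, and their mRNAs are degraded when DNA synthesis ends. Most of these mRNAs have no poly(A) tail. They end in a short stem-loop that is bound by the stem-loop binding protein SLBP, which is needed for 3′ end formation and translation. The genes are short, mostly without introns, and lie in clusters with many near-identical copies. H2A, H2B, H3 and H4 form the nucleosome core, and H1 binds the linker DNA between cores.

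The table gives 1 FPKM value per group (fragments per kilobase of transcript, scaled to the number of mapped fragments), so no spread between replicates and no test are given here. Fold changes are ratios of TTP-tdTom over tdTom on the log2 scale and describe these libraries. A gene was followed further when the mean of its 2 values was at least 1 FPKM. The table holds no fragment counts, and the sources state a planned sequencing depth but not the one reached, so no counting interval is given. ZFP36, which encodes TTP, was at 5.56 FPKM with tdTom and 5.54 with TTP-tdTom. The table thus shows no higher level of the targeted gene in the group labelled TTP-tdTom, and the groups are called by their labels here. By immunoblot, the paper detected TTP protein in the TTP-tdTom line at the Dox time used for RNA-Seq. By qRT-PCR, it reports a rise of TTP mRNA in that line after a longer Dox treatment. Whether the ZFP36 value counts mRNA made from the vector was not tested, so this value does not show whether TTP was induced. Of the epithelial markers, KRT18 was at 98.2 and 91.5 FPKM and EPCAM at 15.1 and 16.8, whereas CDH1 had a mean under 1 FPKM. Of the prostate luminal markers, KLK2, KLK3 and FOLH1 also had means under 1 FPKM, as did all 6 endothelial and leukocyte markers, and of the fibroblast markers COL1A1 was at 4.34 and 4.56 FPKM while COL1A2 and DCN had means under 1 FPKM.

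The stem-loops are shown because they set these mRNAs apart. The GENCODE release 29 transcripts of all 70 genes were searched for a stem of 6 base pairs and a loop of 4 bases with the fixed bases of the histone stem-loop, G-T pairs allowed, and 29 genes held 1. They fell into 5 sequences, printed 5′ to 3′ as DNA with the loop in capitals.
H2A, H2B and H3 form: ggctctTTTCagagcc
H4 form: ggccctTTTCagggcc
H2B and H3 form with A at the loop end: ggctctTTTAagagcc
H4 form with T at the loop end: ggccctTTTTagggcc
Mixed form: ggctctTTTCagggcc
The first form stood in 15 genes, 5 of H2A, 8 of H2B and 2 of H3, and in no H4 gene. The second stood in 5 genes, all of H4. The third was found in 5 genes, among them HIST1H2BC, HIST1H2BF and HIST1H2BD, the fourth in HIST1H4I and HIST2H4A, and the last in HIST1H2AG and HIST2H2BC. Of the 41 genes without a match, 34 have no annotated bases after the stop codon, among them 4 H1 genes, so that the 3′ end could not be searched. Among 57133 gene names of the release, 37 held 1 of the 5 sequences and only 3 of these names did not start with HIST.

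Histone mRNAs were abundant in both groups. Of the 70 genes, 49 had a mean of at least 1 FPKM, and 28 of these had a mean of at least 100 FPKM, or 57.1%, against 5.34% of the 12511 gene symbols past the same minimum. The median of the mean FPKM was 178 over the 49 histone genes and 8.06 over all gene symbols. FPKM is scaled to transcript length, and how far the shortness of histone transcripts shapes these levels was not tested. The libraries were made with the NuGEN Ovation Encore Complete kit, and the paper names no poly(A) selection step. The highest was HIST2H2BE, an H2B gene, which ranked 24th by mean FPKM among all gene symbols. The 21 genes under the minimum reached at most a mean of 0.806 FPKM (HIST1H1A), and the lowest gene above it was HIST1H3E with 1.54 FPKM. Below the minimum 9 genes differed by 2-fold at levels where a fold says little. The share of all gene symbols under the minimum that did so was not worked out, so this count has no background beside it. Lower were HIST1H2BI (1.26 FPKM with tdTom, 0.337 with TTP-tdTom), HIST1H4F (0.576 and 0.142), HIST1H2AA (0.493 and 0.197), HIST1H2BA (0.317 and 0.107), HIST1H3G (0.215 and 0.0467) and HIST2H2AA4 (0.135 and 0.0373). Higher were HIST1H4D (0.201 and 1.20), HIST1H1T (0.339 and 0.853) and the pseudogene HIST1H2APS1 (0.169 and 0.355). HIST2H3A was at 0.0679 FPKM with tdTom and listed at 0 with TTP-tdTom.

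Between the groups as labelled, histone mRNAs differed by a small shift that was close to that of all genes. The median log2 fold change of the 49 genes was -0.26, and that of all 12511 gene symbols was -0.24, so that after centring on all genes the histone median was -0.021. Fold changes are on the deposited scale unless centring is named. Of the 49 genes, 42 were lower in TTP-tdTom and 7 were higher, a share of 85.7% lower, against 79.9% of all gene symbols. Some of these genes share a row, and with each row counted once 37 of 44, or 84.1%, were lower. None of the 49 differed by 2-fold, while 8.3% of all gene symbols were lower and 1.22% higher by at least 2-fold. At 1.5-fold 1 histone gene was lower, HIST1H2BC, and 1 was higher, HIST2H2BA, where the background was 22.7% lower and 2.37% higher. HIST1H2BC was short of 1.5-fold when both groups were scaled to the same summed FPKM (-0.54) and after centring (-0.35). After centring, 26 of the 49 were lower and 23 higher, and at 1.5-fold 0 were lower and 3 higher, namely HIST2H2BA, HIST4H4 and HIST1H4C. The share of all gene symbols past 1.5-fold was not worked out on the centred scale, so these counts have no background beside them. The log2 fold changes of the 49 genes also lay closer together. A total of 40 of the 49, or 81.6%, lay within 0.25 of the median of all genes, whereas 53.0% of all gene symbols did. Highly expressed genes as a whole varied less as well, since among the 668 gene symbols with a mean of at least 100 FPKM 77 were lower by 1.5-fold, with a median of -0.20. The 28 histone genes of that level had a median of -0.29. Of them 27 were lower in the TTP-tdTom group, a share of 96.4% where 90.1% of all gene symbols of that level were lower. Rows shared by a pair of histone genes count for both here. The 309 gene symbols with a locus of up to 3000 bases had a median of -0.11, with 65.4% lower. Histone loci were not all so short, as that of HIST2H2BF spans 29684 bases. The histone medians thus lay below those of both narrower backgrounds. A smaller share of cells in S phase and less histone mRNA per cell cannot be told apart in these bulk samples.

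**Figure D1:**
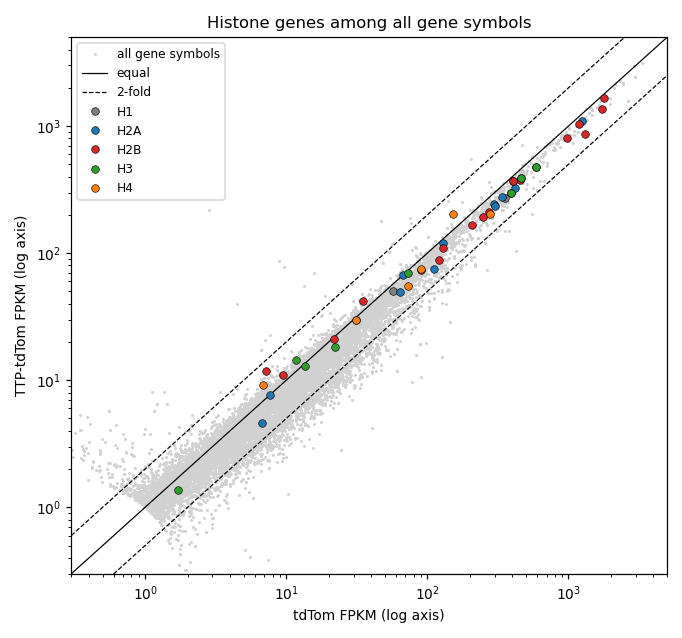
FPKM in the TTP-tdTom group (y axis, log) against the tdTom group (x axis, log) for gene symbols with a mean of at least 1 FPKM (grey; values under 0.3 FPKM lie outside the axes) and for the 49 histone genes coloured by type. The solid line marks equal values and the dashed lines 2-fold; no histone gene lies beyond them.

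H2B genes carried the largest part of the histone signal. Summed over their rows, the H2B genes were at 8994 FPKM with tdTom and 7421 with TTP-tdTom. The H2A genes summed to 4428 and 3666 FPKM, the H3 genes to 1589.8 and 1313, the H1 genes to 814 and 691, and the H4 genes to 633 and 579. The summed level of TTP-tdTom was therefore, as a share of that of tdTom, 82.5% for H2B, 82.8% for H2A, 82.6% for H3, 84.9% for H1 and 91.6% for H4. Relative to the median of all genes, the log2 ratio of the sums was -0.034 for H2A, -0.038 for H2B and -0.037 for H3, whereas the direction turned for H1 (0.0015) and H4 (0.11). The H1 and H3 sums rest on rows shared with other types. In rows of their own, H1 kept 78.5% (log2 -0.35) and H3 95.0% (log2 -0.074), so that against the median of -0.24 of all genes both changed sides. In nucleosomes the core histones are present in equal numbers, but the summed mRNA values were not. Counted only in rows that name a single histone gene, H2B made 69.8% of the core histone FPKM with tdTom and 69.0% with TTP-tdTom, H2A 24.3% and 24.5%, H4 4.89% and 5.38%, and H3 1.00% and 1.15%. These shares leave out 5 rows that hold a pair of histone genes of different types each, 4 of them with an H3 gene, since their fragments cannot be divided between the pair.

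**Figure D2:**
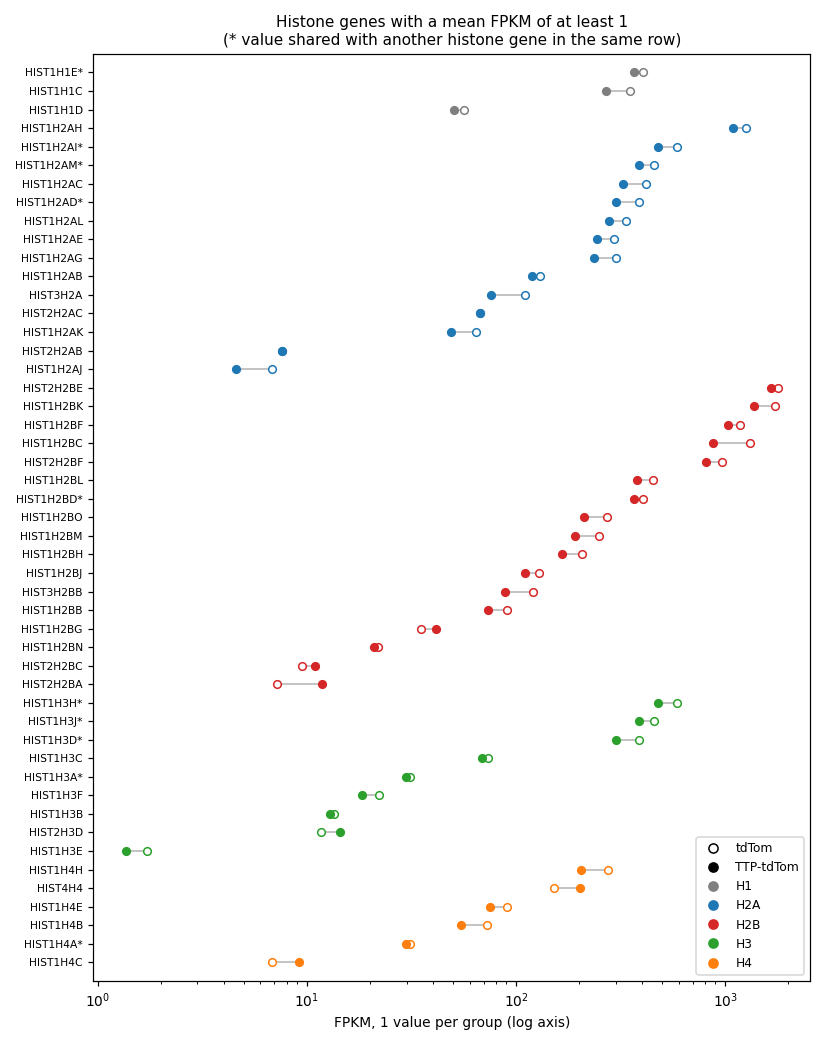
FPKM of each of the 49 histone genes (x axis, log), with open circles for the tdTom group and filled circles for the TTP-tdTom group, sorted by mean within each type; an asterisk marks a value shared with another histone gene in 1 row. The filled circle lies to the left of the open one for 42 genes, and levels span from 1.54 FPKM (HIST1H3E) to 1721 FPKM (HIST2H2BE) as a mean of the groups.

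Among the H2B genes, 4 had a mean above 1000 FPKM. HIST2H2BE, on chromosome 1 of GRCh37 in a locus from 149855774 to 149861387, was at 1783 FPKM with tdTom and 1659 with TTP-tdTom, a log2 fold change of -0.10. HIST1H2BK, on chromosome 6 from 27106072 to 27114637, was at 1740.5 and 1372 FPKM (log2 -0.34). HIST1H2BF was at 1181 and 1030.2 FPKM (log2 -0.20). HIST1H2BC, in the locus from 26113405 to 26125205 on the same chromosome, was at 1317 and 873 FPKM, and its log2 fold change of -0.59 was the lowest of the 49 genes. So TTP-tdTom was the lower for all 4, but the order of HIST1H2BF and HIST1H2BC was exchanged between the groups. HIST2H2BF came next with 971 and 811 FPKM (log2 -0.26). These loci are stretches assembled from overlapping fragments and can hold several genes.

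Of the 17 H2B genes past the minimum, only 3 were higher in TTP-tdTom, with means of at most 38.4 FPKM (HIST1H2BG). HIST2H2BA, on chromosome 1 from 120906034 to 120914842, was at 7.23 FPKM with tdTom and 11.8 with TTP-tdTom, and its log2 fold change of 0.70 was the highest of the 49. Of its 75-base words, counted as described below, 54.8% occur also in other genes, HIST2H2BE and HIST2H2BF among them, so its value is uncertain. HIST2H2BC was at 9.53 and 11.0 FPKM (log2 0.21). RefSeq lists HIST2H2BA and HIST2H2BC as transcribed pseudogenes. HIST1H2BG was at 35.2 and 41.7 FPKM (log2 0.24). The remaining H2B genes past the minimum, between 21.5 FPKM (HIST1H2BN) and 415 FPKM (HIST1H2BL) as a mean, were all lower, with log2 fold changes from -0.45 (HIST3H2BB) to -0.05 (HIST1H2BN).

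The 14 H2A genes had a median log2 fold change of -0.29, the lowest of the types. HIST1H2AH, in a short locus of its own on chromosome 6 from 27114796 to 27115758, was the highest with 1253 FPKM with tdTom and 1091 with TTP-tdTom (log2 -0.20). HIST1H2AI shares its row with the H3 gene HIST1H3H at 588 and 477 FPKM (log2 -0.30), and HIST1H2AM with HIST1H3J at 459 and 389 FPKM (log2 -0.24). HIST1H2AC was at 419 and 326 FPKM (log2 -0.36). The lowest ratios stood at low or middling levels: HIST1H2AJ was at 6.79 and 4.61 FPKM (log2 -0.56) and HIST3H2A at 111 and 75.7 FPKM (log2 -0.55). The genes at the other end were both of the HIST2 cluster. HIST2H2AC was at 67.3 and 67.5 FPKM and HIST2H2AB at 7.65 and 7.62 FPKM, so that each was equal in the groups within 0.01 on the log2 scale.

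Of the 13 H3 genes, 9 passed the minimum, and 3 of the 4 highest share their rows with H2A genes. Beside HIST1H3H and HIST1H3J these include HIST1H3D, in 1 row with HIST1H2AD at 389 and 300 FPKM (log2 -0.38, the lowest H3 value). The highest H3 gene in a row of its own was HIST1H3C with 73.2 FPKM with tdTom and 69.2 with TTP-tdTom (log2 -0.08). HIST1H3A, in 1 row with HIST1H4A, was at 31.0 and 29.7 FPKM (log2 -0.06). HIST1H3E was at 1.72 and 1.37 FPKM (log2 -0.33). Of the 9 H3 genes past the minimum, HIST2H3D alone was higher in TTP-tdTom, at 11.7 and 14.4 FPKM (log2 0.29).

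The H4 genes went in both directions. HIST1H4H was at 277 FPKM with tdTom and 204 with TTP-tdTom (log2 -0.44), HIST1H4B at 72.6 and 54.7 FPKM (log2 -0.41) and HIST1H4E at 90.7 and 75.1 FPKM (log2 -0.27). HIST4H4, the single gene of the HIST4 set on chromosome 12 from 14921235 to 14924609, went the other way with 152 and 203 FPKM (log2 0.42), and it was the only one of the 28 genes at a mean of 100 FPKM or more that was higher in TTP-tdTom. HIST1H4C was at 6.83 and 9.20 FPKM (log2 0.43). The H4 median of -0.17 therefore stands between 4 lower and 2 higher genes. H4 was also the type with the most genes under the minimum, 8 of 14, among them HIST1H4L and HIST2H4A, which were listed at 0 in the TTP-tdTom group and at 0.112 and 0.0410 FPKM in the tdTom group.

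H1 binds linker DNA, and 3 of its 6 genes passed the minimum. HIST1H1C was at 352 FPKM with tdTom and 269 with TTP-tdTom (log2 -0.39), and HIST1H1D at 56.7 and 50.8 FPKM (log2 -0.16). HIST1H1E was in 1 row with the H2B gene HIST1H2BD at 403 and 369 FPKM (log2 -0.13). The genes under the minimum were HIST1H1A, HIST1H1B and HIST1H1T, the last of which is known as the testis-specific H1. The testis-specific HIST1H2AA and HIST1H2BA were under it as well, with means of 0.345 and 0.212 FPKM.

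The genes were also compared by cluster. On chromosome 6 the HIST1 genes run from 25726291 to 27864409, and 37 of the 39 past the minimum were lower, against 79.9% of all gene symbols, with a median log2 fold change of -0.28 that became -0.04 after centring. The 24 genes below 27 Mb had a median of -0.28 and the 15 above 27 Mb one of -0.30. In the HIST2 set on chromosome 1, 3 of 7 genes were lower, and the median was 0.005, or 0.24 after centring. The 4 higher were the pseudogenes HIST2H2BA and HIST2H2BC, HIST2H3D and HIST2H2AC, with means of at most 67.4 FPKM. Of the 3 lower, HIST2H2BE and HIST2H2BF had means of 1721 and 891 FPKM and HIST2H2AB one of 7.64. Both HIST3 genes past the minimum, HIST3H2A and HIST3H2BB, were lower, with a median of -0.50 that became -0.26 after centring. HIST3H2BB was at 121 FPKM with tdTom and 88.4 with TTP-tdTom.

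H2A and H2B genes often lie head to head and share the stretch between their starts, which allows the members of a pair to be compared. In the RefSeq promoter table of GRCh38.p14, which held 62 of the 70 genes, 10 such H2A/H2B pairs past the minimum had starts 194 to 248 bases apart. The octamer ATTTGCAT, the binding motif of the factor POU2F1, was sought on both strands in the window from 250 bases before to 50 after the start. It was present in 14 of 18 H2B promoters and 11 of 15 H2A promoters, in 1 of 11 H3 promoters and in none of the 6 H1 and 12 H4 promoters, against 1.77% of 35116 promoters. The letters around it are shown for the 4 H2B genes above 1000 FPKM, 5′ to 3′ on the strand of the gene, with the octamer in capitals and the position in GRCh38.p14.
HIST2H2BE, chr1:149886712-149886737, minus strand: ggagccctaATTTGCATaaggtggtt
HIST1H2BK, chr6:27146888-27146913, minus strand: cttcaccttATTTGCATgagaggtcc
HIST1H2BF, chr6:26199396-26199421, plus strand: aatcacctaATTTGCATaccacaggg
HIST1H2BC, chr6:26124033-26124058, minus strand: tcatacctcATTTGCATagctctgcc
The octamers of HIST1H2BC, HIST1H2BF and HIST2H2BE are the same genomic sites as those found for their H2A partners HIST1H2AC, HIST1H2AD and HIST2H2AC, read from the other strand. The TATA box letters TATAAA, sought on both strands, stood in 12 of 18 H2B and 11 of 15 H2A promoters against 11.5% of all, and CCAAT in all 18 and all 15 against 34.6%. These letters were not peculiar to H2A and H2B, as TATAAA stood also in 8 of 11 H3, 7 of 12 H4 and 3 of 6 H1 promoters, and CCAAT in all 11 H3, all 6 H1 and 3 of 12 H4 promoters. These matches describe the letters in the window and nothing of the factors.

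Levels differed widely within some of the pairs. In 8 of the 10 pairs both genes were lower in TTP-tdTom, where 85.7% of the 49 histone genes and 79.9% of all gene symbols were lower singly. The H2A gene had the lower ratio in 7. In 3 pairs the H2A value is that of a row shared with an H3 gene (HIST1H2AD, HIST1H2AI and HIST1H2AM), and 2 of these are among the 7. With tdTom, HIST2H2BE was at 1783 FPKM and its partner HIST2H2AC at 67.3, and HIST1H2BM was 36.7 times HIST1H2AJ. Of the 75-base words of HIST1H2AJ, counted as described below, 82.4% occur also in HIST1H2AI, so its level is uncertain. In HIST1H2BC/HIST1H2AC the ratio of levels was 3.14, and both genes were lower, with log2 fold changes of -0.59 and -0.36. The smallest difference between the log2 fold changes of a pair was 0.042 (HIST1H2BL/HIST1H2AI, where the H2A row is shared). The largest was 0.52, between HIST1H2BG at 0.24 and HIST1H2AE at -0.28, with HIST1H2AE at 296 FPKM with tdTom and 244 with TTP-tdTom.

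**Figure D3:**
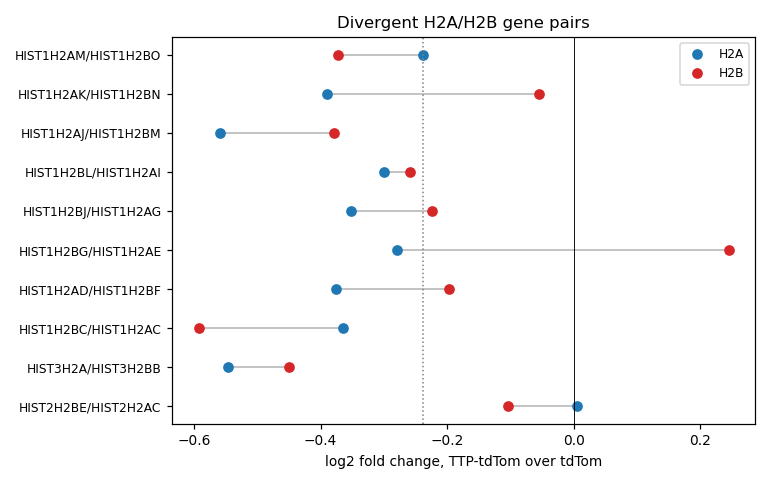
Log2 fold change of TTP-tdTom over tdTom (x axis) for the H2A gene (blue) and the H2B gene (red) of each of the 10 divergent pairs; the dotted line is the median of all gene symbols, -0.24. In 8 pairs both points lie below 0, and the points are furthest apart for HIST1H2BG/HIST1H2AE.

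Near-identical copies and overlapping transcripts limit how far single histone genes can be read. The share of the 75-base words of each gene's GENCODE transcripts that also occur in another gene was computed, 75 bases being the length of 1 read. It was 0 for 42 of the 70 genes and at least 50% for 13 genes. Of those 13, 5 were under the minimum, HIST2H2AA4, HIST2H3A, HIST2H4A, HIST1H4J and HIST1H4K. The 8 above it were HIST1H2BK with 50.5%, HIST2H2BA with 54.8%, HIST1H2AI with 60.1%, HIST2H3D with 70.3%, HIST1H2AJ with 82.4%, HIST1H2AM with 85.3%, HIST1H2AD with 97.8% and HIST1H3D with 100%. Of the 57 genes with a smaller share, 16 were under the minimum. HIST1H2AD and HIST1H3D share words only with AL031777.3, a gene model that overlaps both in the annotation, and HIST1H2AM in part with HIST1H3J of its own row, so that these are overlapping transcripts rather than copies. The values of the 13 genes are uncertain, since fragments that match several genes can be split or assigned elsewhere. How the authors' programs handled them is not given in the sources used here.

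**Figure D4:**
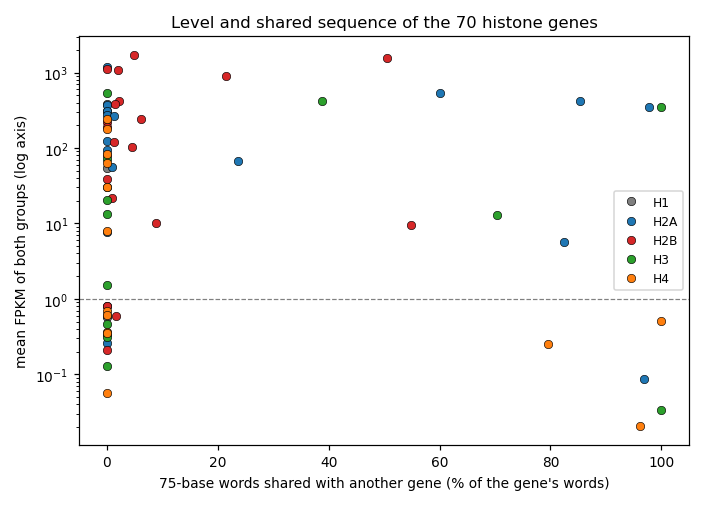
Mean FPKM of both groups (y axis, log) against the percentage of a gene's 75-base words that occur in another gene (x axis) for the 70 histone genes, coloured by type; the dashed line is the minimum of 1 FPKM. Genes under the line are found at both ends of the x axis, from 0% to 100% (HIST2H3A and HIST1H4K).

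The fold changes of all genes went with the GC content of their transcripts. Over 11195 gene symbols with a GENCODE transcript, 89.5% of those past the minimum, the median log2 fold change was -0.49 in GC deciles 1 to 4, up to 45.0% GC, and -0.11 in deciles 8 to 10, from 54.2% GC. The 8 histone genes in the low deciles had a median of -0.26, and the 27 in the high deciles one of -0.26 as well. Thus GC-rich histone genes lay below and GC-poor ones above the median of genes of like annotated GC content. GC was taken from the longest annotated transcript, and 34 of the 70 histone genes have no annotated bases after the stop codon. Their GC leaves out that part of the mRNA, so for them the comparison is not a like one. The part of GC in these values was not tested. The heptamer TATTTAT, the core of AU-rich elements, occurred in a transcript of 6 of the 70 genes and of 21.1% of all gene names of the release. It could not be sought after the stop codon in the 34 genes without annotated bases there. Of the 6 HIST1H2BF, HIST1H2BH, HIST3H2A and HIST4H4 were past the minimum with single copies and with log2 fold changes of -0.20, -0.31, -0.55 and 0.42, and HIST1H3E held 6 copies at -0.33. Of the 29 genes with a stem-loop, 19 have an annotated transcript that runs 300 bases or more past it and 10 do not. The 15 of the 19 past the minimum had a median of -0.27, and the 6 of the 10 past it one of -0.29.

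Variant histones are mostly made outside S phase too, from genes that lie apart from the clusters and mostly give polyadenylated mRNAs. Of the 12 in the list, 11 passed the minimum, with a median log2 fold change of -0.25, 0 lower by 2-fold and 2, or 18.2%, by 1.5-fold, where 8.3% and 22.7% of all gene symbols were. The one furthest from 0 was H3F3B, a gene for the replacement histone H3.3, at 342 FPKM with tdTom and 179 with TTP-tdTom (log2 -0.93). H3F3A, which encodes the same protein, was at 166 and 125 FPKM (log2 -0.41). CENPA, the H3 variant of centromeres, was at 17.6 and 11.7 FPKM (log2 -0.59), at the limit of 1.5-fold, and was short of it with either pseudocount, at the same sum (-0.54) and after centring (-0.35). H2AFZ, the most abundant variant, was at 801 and 661 FPKM (log2 -0.28). H2AFX was in 1 row with DPAGT1 at 406 and 341 FPKM (log2 -0.25), and H1F0 was at 34.4 and 35.1 FPKM (log2 0.03).

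Genes that make and process histone mRNA went in both directions, as all genes did. Of 16, 12 were lower and 4 higher, or 75% lower where 79.9% of all gene symbols were. Their median was -0.18 and became 0.064 after centring on all genes. By 2-fold 1 was lower, or 6.25% against 8.3% of all gene symbols, and by 1.5-fold 2, or 12.5% against 22.7%. SLBP was lower by just over 2-fold, at 24.2 FPKM with tdTom and 11.8 with TTP-tdTom (log2 -1.04), and was short of it at log2 -0.98 with a pseudocount of 1, at -0.99 at the same sum and at -0.80 after centring. CPSF2, part of the cleavage complex, was lower by 1.5-fold at 36.0 and 23.6 FPKM (log2 -0.61), though not at the same sum (-0.56) or after centring (-0.37). By contrast NPAT, the coactivator of histone transcription, was at 138 and 157 FPKM (log2 0.19), LSM11 of the U7 particle at 4.22 and 5.36 FPKM (log2 0.35, or 0.63 when its loci were summed), and CASP8AP2 at 5.88 and 5.11 FPKM (log2 -0.20). So the mRNA of the stem-loop binding protein was at 48.7% of its tdTom level while that of the histones was at 83.0% by summed FPKM. The 9 genes of histone mRNA decay were all lower, where 79.9% of all gene symbols were, with a median of -0.49 that became -0.25 after centring. The 4 of them lower by 1.5-fold, against 22.7% of all gene symbols, were PNRC2 (60.7 and 32.7 FPKM, log2 -0.89), the exonuclease gene XRN1 (7.84 and 4.27 FPKM, log2 -0.88), and the uridylyl transferase genes ZCCHC11 (12.0 and 7.19 FPKM, log2 -0.73) and ZCCHC6 (6.82 and 4.39 FPKM, log2 -0.63). After centring ZCCHC11 and ZCCHC6, at -0.50 and -0.40, were short of 1.5-fold, and ZCCHC6 was so also with a pseudocount of 1 (-0.54), with FPKM summed over loci (-0.46) and at the same sum (-0.58).

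Of the 18 histone chaperone and assembly genes, 16 were lower, or 88.9% where 79.9% of all gene symbols were, with a median of -0.18 that became 0.055 after centring on all genes. By 2-fold 2 were lower, or 11.1%, against the background of 8.3%. ASF1A, which hands H3 and H4 to the assembly factors, was at 12.0 FPKM with tdTom and 5.10 with TTP-tdTom (log2 -1.23), or log2 -0.88 when its loci were summed. ANP32E, a chaperone that removes H2A.Z, was at 135 and 58.4 FPKM (log2 -1.20), and ATRX at 36.1 and 22.6 FPKM (log2 -0.67, or -0.44 after centring). After centring, ASF1A and ANP32E stood at -0.99 and -0.97 and so short of 2-fold. The subunits of the CAF-1 complex had log2 fold changes of -0.09 for CHAF1A, 0.08 for CHAF1B and -0.30 for RBBP4, and NASP, which stores H3 and H4, was at 158 and 143 FPKM (log2 -0.14). The 19 S phase genes had a median of -0.39, which was -0.31 with FPKM summed over loci and -0.15 after centring, and 17 were lower, or 89.5% against 79.9%. The 2 lower by 2-fold, a share of 10.5% where 8.3% of all gene symbols were, were CCNA2 (17.8 and 6.55 FPKM, log2 -1.44) and CCNE2 (13.6 and 6.04 FPKM, log2 -1.17), and RRM2 (181 and 103 FPKM, log2 -0.81) and TYMS (33.8 and 22.5 FPKM, log2 -0.59) were lower by 1.5-fold. After centring CCNA2 was at -1.20, CCNE2 at -0.93, RRM2 at -0.57 and TYMS at -0.35, the last 2 short of 1.5-fold, and TYMS was short of it also with either pseudocount and at the same sum (-0.53). E2F1, among the 17, was at 2.90 and 2.05 FPKM (log2 -0.50) but at log2 0.62 when its loci were summed. PCNA was at 392 and 350 FPKM (log2 -0.16), and the 6 MCM genes lay between -0.42 (MCM4) and 0.07 (MCM3).

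**Figure D5:**
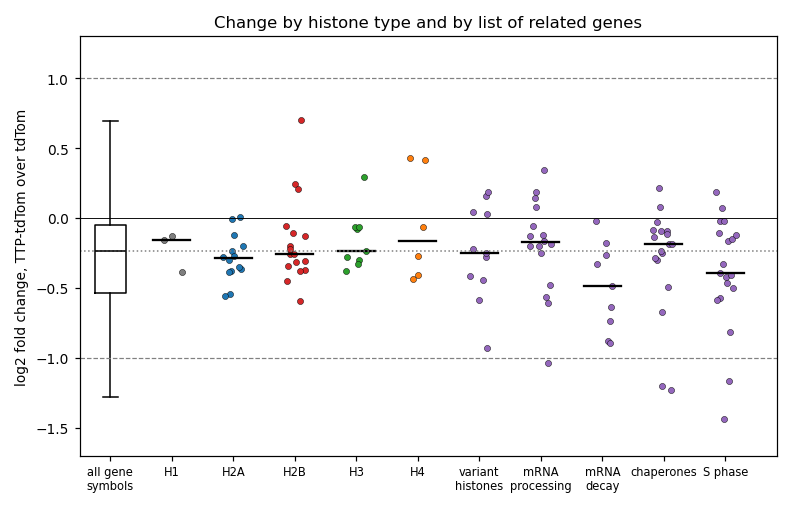
Log2 fold change of TTP-tdTom over tdTom for all gene symbols (box with median and quartiles, whiskers to the furthest value within 1.5 times the box), for the histone genes by type and for the lists of related genes (1 point per gene, black bar for the median). The dotted line is the median of all gene symbols, -0.24, and the dashed lines mark 2-fold; histone genes stay within them, and SLBP, ASF1A, ANP32E, CCNA2 and CCNE2 lie below the lower one on the deposited scale, of which CCNA2 alone does so after centring on all genes.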

How the data were processed

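The authors aligned strand-specific 75-base paired-end reads with TopHat2 2.0.13 to Hs37D5, which is GRCh37 with decoy sequence, and assembled and compared transcripts with Cufflinks 2.2.1. Their deposited FPKM values were used, 1 per group and locus at 406165 loci; the group of each column was read from the group names in the table. The table also holds the authors' own fold changes, test statistics, p and q, which were not used, and the values of single samples were not analysed here. No test was made, as 1 value per group allows none. For a symbol at several loci (9 histone symbols) the locus with most RefSeq names, then the highest FPKM, was taken, and a row that names several symbols counted for each. Starts are counted from 1.

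Genes with a mean FPKM of at least 1 and values above 0 in both groups were compared without a pseudocount. Alternatives were other minimums, pseudocounts of 0.1 and 1, another choice of locus, single-symbol rows, rescaling, centring and a 1.5-fold limit. Named were, for each type, the 4 highest genes and the 2 highest and 2 lowest fold changes, every gene past 2-fold and the pair partners; others named for sequence or low values were chosen after their values were seen. Members and lists were chosen with earlier results of these data known. The functions were tested on simulated data. Python 3.11.15, numpy 2.4.6, pandas 2.3.3 and matplotlib 3.10.9 were used; sequences are from GENCODE release 29 and RefSeq (GRCh38.p14), matched by symbol or RefSeq name.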

Additional observations from a re-analysis of the deposited data

How the results depend on the processing

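No paired analysis was possible because the table holds 1 value per group, and for the same reason no replicate could be left out. With no spread to judge by, a value was taken as moved when it shifted by more than 0.1 on the log2 scale. The counts of 0 histone genes lower and 0 higher by 2-fold became 6 and 3 with no minimum, all of them genes with a mean under 1 FPKM, and 1 and 1 at 1.5-fold. The share of all gene symbols past 2-fold with no minimum was not worked out. With rows of a single symbol, the log2 ratio of summed FPKM was -0.35 for H1 and -0.074 for H3, since the shared rows drop out. Centring on all gene symbols, whose median becomes 0, put the median log2 fold change at -0.021 for the histone genes, -0.014 for variant histones, 0.064 for mRNA processing genes, 0.055 for chaperones and -0.15 for S phase genes, and the log2 ratio of summed FPKM at 0.0015 for H1, -0.034 for H2A, -0.038 for H2B, -0.037 for H3 and 0.11 for H4, so that the sums of H1 and H4 turned and those of H2A, H2B and H3 kept their sign. The other minimums, pseudocounts, choices of locus and the rescaling kept these results within 0.1, though with no minimum the median of all genes was -0.15 and that of the histone genes -0.26. Chosen after seeing the data, and run for the histone median alone, were counting each row once (-0.26) and leaving out pseudogenes (-0.27), and a minimum of 100 FPKM for the medians of histone genes (-0.29) and all genes (-0.20). Of 718 values of single genes under the alternatives, 119 moved by more, mostly by the centring, and none of the 2-fold changes turned its direction. Among the smaller changes, the sign of 35 turned after centring, of 5 near 0 at the same sum, and of 2 with FPKM summed over loci (E2F1, from -0.50 to 0.62, and SYMPK, from -0.06 to 0.0004). The 2-fold calls of related genes did not hold alike: after centring, 4 of the 5 were lost (SLBP -0.80, ASF1A -0.99, ANP32E -0.97, CCNE2 -0.93), SLBP was also short of 2-fold with a pseudocount of 1 (-0.98) and with both groups at the same sum (-0.99), and ASF1A with FPKM summed over loci (-0.88). Of 15 related genes lower by 1.5-fold, 8 were so after centring. FPKM hold no counts, so what depth limits was not worked out.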
